A study of Mus musculus with 3 samples.

Results

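The respiratory chain genes described here are 117 of the 19091 genes in the deposited count tables of mouse liver cells. They were identified by symbol, as subunits of complexes I to V of the respiratory chain, factors that share their gene names, and every gene with the prefix mt-, which marks the mitochondrial genome. The rule reads no measured value. Of the 90 nuclear-encoded genes, 36 name subunits of complex I, 4 of complex II, 8 of complex III, 16 of complex IV and 15 of complex V, the ATP synthase. A further 7 are assembly factors of complex I (Ndufaf1 to Ndufaf7), 1 is the supercomplex factor Cox7a2l, and 3 carry ATP synthase-like names (Atp5s, Atp5sl and Atp5l-ps1). The 27 mt- genes hold 12 protein-coding genes, 2 ribosomal RNAs (rRNAs) and 13 transfer RNAs. The protein-coding gene mt-Nd4l was not analysed here.

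Cells of digested liver were measured by Drop-seq, in which each cell shares a droplet with a barcoded bead and every captured transcript carries a unique molecular identifier (UMI). There was 1 library per group, all from adult mice of unstated age, C57BL/6 by the labels and C57BL/6J by the methods of the study, for which no transgene is named: control livers, livers 1 day after irreversible electroporation (IRE), and livers 7 days after IRE, called 1 dpi and 7 dpi. IRE kills the cells of a confined area by electric pulses, here 8 pulses of 50 ms, at 75 V by the labels and at a lower voltage by the methods of the study. The control is labelled as sham surgery with tissue taken after 1 day, and the methods describe the matching uninjured area. The 7 dpi library thus has no control of its own day, and for it injury and time after surgery cannot be told apart. A punch of 4 mm was taken from each liver and the livers of a group were pooled, so that no test across animals was possible, no p-value is given, and every interval is a 95% interval for counting error only. Since PCR copies were collapsed by UMI but animals were pooled, the spread between mice is not known for any value.

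Barcodes with at least 200 detected genes were taken as cells. There were 10386 control cells with 8013800 UMIs, 9253 cells at 1 dpi with 6107866 UMIs and 5624 cells at 7 dpi with 3058967 UMIs, and the median depth was 456.5 to 595 UMIs per cell. Between 44 and 149 cell barcodes were shared by each pair of libraries, which is no more than 2.65% of a library. Hepatocyte marker genes took 0.200% of the control UMIs, 3.58% at 1 dpi and 0.0466% at 7 dpi, and neutrophil markers took 0.404%, 0.0736% and 4.36%. Drop-seq counts each captured transcript end once, so that levels are not divided by transcript length. The 3 libraries differed in their cell makeup, and for each sum over a library, fewer cells of a type and less RNA per cell cannot be told apart.

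The respiratory chain sits in the inner mitochondrial membrane. Complexes I and II take electrons from NADH and succinate, complex III passes them to cytochrome c, complex IV hands them to oxygen, and the proton gradient built by complexes I, III and IV drives the ATP synthase. Complex II is wholly nuclear-encoded, whereas the others combine nuclear-encoded subunits with a small core made inside the organelle from mitochondrial DNA, so that both genomes have to be expressed for a working chain. Hepatocytes are rich in mitochondria, which they use for fatty acid oxidation, urea synthesis and gluconeogenesis.

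Sequence bears on which mt- genes can be counted at all, because a read that matches the nuclear genome as well as the mitochondrial genome has a low mapping quality, and the file headers state a minimum mapping quality of 10. In the GENCODE vM21 transcripts (build GRCm38), mt-Co3, a core subunit of complex IV, was identical over 783 of 784 bases to Gm28437 on chromosome 1 (chr1:24613189-24613971, minus strand). In the same stretch of chromosome 1, mt-Co2 was identical to Gm28661 over 681 bases and mt-Atp6 to Gm10925 over 678 bases. mt-Cytb, the mitochondrial subunit of complex III, had its nearest annotated copy, Gm11410, on chromosome 4 at 92.9% identity with 81 mismatches. The ends nearest to the poly(A) tail, by which transcripts are captured, are printed for both pairs, with capitals at mismatched bases. Over these bases they show a copy that cannot be told apart from its gene and one that can. The cDNA was fragmented before sequencing, so that reads need not cover this stretch.
mt-Co3: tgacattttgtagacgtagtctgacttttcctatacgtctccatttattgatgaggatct
Gm28437: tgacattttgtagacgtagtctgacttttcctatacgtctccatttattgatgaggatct
mt-Cytb: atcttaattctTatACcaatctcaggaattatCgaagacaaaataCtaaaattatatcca
Gm11410: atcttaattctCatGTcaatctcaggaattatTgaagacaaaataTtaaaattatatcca
The mt-Co3 pair covers bases 724 to 783 of the transcript with 0 mismatches and the mt-Cytb pair bases 1084 to 1143 with 5 mismatches.

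The counts of these genes lay far apart. mt-Co3 had 1, 1 and 0 UMIs in the control, 1 dpi and 7 dpi cells, mt-Co2 had 3, 1 and 0, mt-Atp6 had 4, 2 and 1, and mt-Cytb had 19187, 22109 and 2387. mt-Atp8, whose nearest annotated copy was 81.4% identical over 167 bases, also had 1, 0 and 0 UMIs. Only annotated transcripts were searched. On mitochondrial DNA, mt-Atp8 starts at base 7766, between the end of mt-Co2 (7696) and the start of mt-Atp6 (7927). The chromosome 1 sequence between the copies of these 2 genes was not searched, so a closer match of mt-Atp8 may have been missed. mt-Nd4 was identical to Gm28439 over its first 876 bases, with 502 bases at the 3′ end outside the copy, and had 9869, 10363 and 1049 UMIs. mt-Nd3 had 504, 511 and 70 UMIs with 1 mismatch over 345 bases. The levels of mt-Co2, mt-Co3, mt-Atp6 and mt-Atp8 are therefore not read as expression, and whether the nuclear copies took part in their low counts was not tested. The processing notes of the submitters list the build only as hg19, which is a human build, so that the reference behind these counts is not known.

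Mitochondrial RNA was far lower at 7 dpi than in either other library, while the nuclear-encoded genes as a group stayed at nearly the same level. The mt- genes took 20.5% (20.4 to 20.5%) of the UMIs of control cells, 21.7% at 1 dpi and 4.10% at 7 dpi. This total is almost wholly 1 RNA: the large rRNA mt-Rnr2 alone took 18.9%, 20.2% and 3.60% of all UMIs, or 92.3%, 92.7% and 87.8% of the mt- UMIs. The mt- protein-coding genes together had 10767 UMIs per 1000000 UMIs (counts per 1000000, CPM) in control, 13797 at 1 dpi and 3630 at 7 dpi, which gave a ratio to control of 1.28 (1.27 to 1.29) at 1 dpi and 0.337 (0.331 to 0.344) at 7 dpi. The 90 nuclear-encoded genes had 17525, 17317 and 17242 CPM, with ratios of 0.988 (0.980 to 0.996) and 0.984 (0.974 to 0.994). Counting per nuclear-encoded member UMI, cells held 0.614 mt- protein-coding UMIs in control, 0.797 at 1 dpi and 0.211 at 7 dpi.

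Because mt-Rnr2 is large enough to move every other share, nuclear-encoded levels were also taken per 1000000 UMIs outside the mt- genes. On this scale they were 22032 in control, 22129 at 1 dpi and 17979 at 7 dpi, and the ratio at 7 dpi became 0.816 (0.808 to 0.824) while that at 1 dpi was 1.00 (0.996 to 1.01). The statement that the nuclear-encoded group kept its level at 7 dpi thus holds for all UMIs as the denominator and not for UMIs outside mt- genes. The change of denominator moved the median log2 ratio of all genes at 7 dpi from -0.21 to -0.48.

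**Figure D1:**
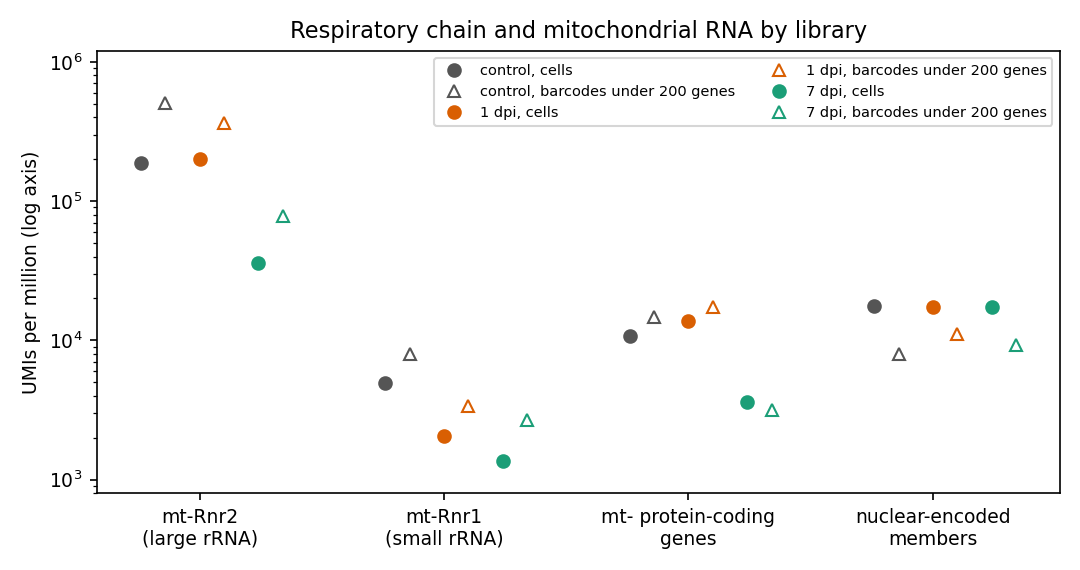
CPM (log axis) of mt-Rnr2 and mt-Rnr1, the mt- protein-coding genes and the nuclear-encoded genes in each library, for cells (circles) and for barcodes under 200 genes (triangles). At 7 dpi the 3 mitochondrial classes lie below both other libraries in cells, and the nuclear-encoded genes of the 3 libraries overlap at 17242 to 17525 CPM.

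The low mt- share at 7 dpi was seen across the whole distribution of cells. The median cell held 18.5% mt- UMIs in control, 23.1% at 1 dpi and 3.30% at 7 dpi. The upper quartile at 7 dpi, 5.12%, lay below the lower quartile in control, 12.3%, and at 1 dpi, 15.1%. Cells over 20% mt- UMIs, a limit often used to remove damaged cells, numbered 4627 in control (44.6%), 5525 at 1 dpi (59.7%) and 85 at 7 dpi (1.51%). Genes linked to tissue dissociation, such as Fos and Jun, took 0.113%, 0.0815% and 0.309% of UMIs, haemoglobin and Alas2 RNA 0.0208%, 0.0183% and 0.00644%, and the nuclear RNAs Malat1 and Neat1 1.30%, 1.24% and 1.24%. The dissociation genes were thus highest and the haemoglobin RNA lowest at 7 dpi, whereas the sum of the 2 nuclear RNAs stood at the same share at 1 dpi and 7 dpi. This sum was almost wholly Malat1, and Neat1 alone was highest at 7 dpi, with 108, 139 and 253 CPM. The part of these RNAs in the mt- difference was not tested.

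The 2 mitochondrial rRNAs, which form the cores of the small and large subunits of the mitochondrial ribosome and are cut from 1 precursor, did not move together. mt-Rnr1, the small rRNA, had 4910 CPM in control, 2067 at 1 dpi and 1363 at 7 dpi. Its ratio to control at 1 dpi was 0.421 (0.413 to 0.429), whereas that of mt-Rnr2 was 1.07 (1.06 to 1.07). Per 1000 mt-Rnr2 UMIs there were 26.0 mt-Rnr1 UMIs in control, 10.3 at 1 dpi and 37.8 at 7 dpi, so that 1 dpi was lowest and 7 dpi highest. The order held in barcodes under 200 genes, with 15.8, 9.29 and 34.4. Over the classes of at least 50 cells outside hepatocytes, it was 22.2 to 32.2 in control, 9.61 to 11.7 at 1 dpi and 35.0 to 46.5 at 7 dpi, and these 3 ranges did not overlap. Smaller classes spread further, with the 7 plasmacytoid dendritic cells of 7 dpi at 22.4, inside the control range. Cells of the hepatocyte gate stood apart from their own library at 1 dpi, at 37.7.

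**Figure D2:**
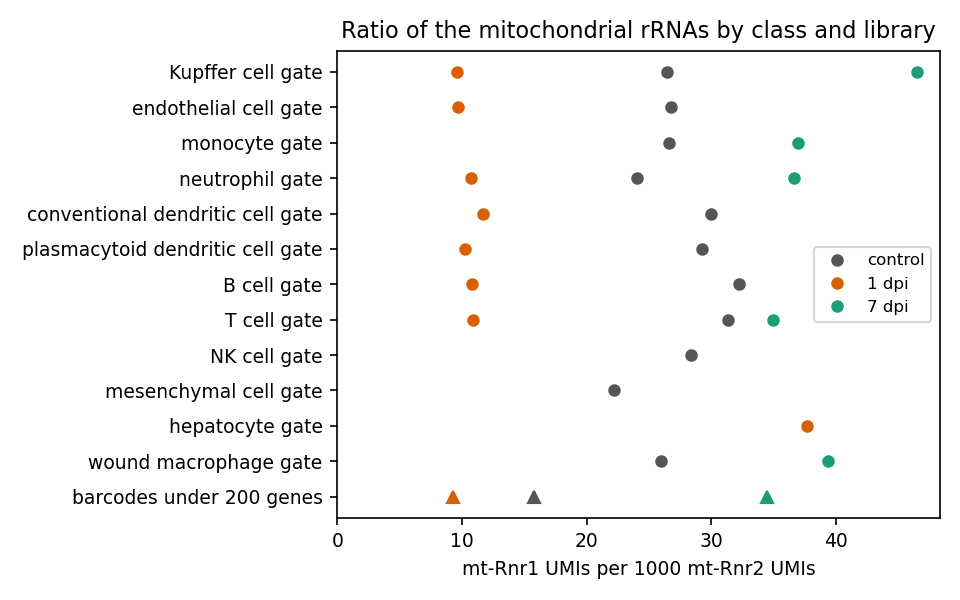
UMIs of the small rRNA mt-Rnr1 per 1000 UMIs of the large rRNA mt-Rnr2 in each cell class with at least 50 cells (circles) and in barcodes under 200 genes (triangles), by library. The classes of 1 dpi lie at 9.61 to 11.7 except the hepatocyte gate at 37.7, below all control classes and all classes of 7 dpi.

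Among the mt- mRNAs, the core subunits of complexes I, III and IV, the 7 dpi library was lowest for all 8 genes with usable counts, and the genes differed in how far. mt-Co1, the catalytic subunit of complex IV, had 1757 CPM in control, 2155 at 1 dpi and 977 at 7 dpi, and its ratio at 7 dpi, 0.556 (0.534 to 0.579), was the mildest. mt-Nd2 of complex I had 1951, 2505 and 444, with a ratio of 0.228 (0.215 to 0.241) at 7 dpi, the lowest of the 8. As a share of the mt- protein-coding UMIs, mt-Co1 went from 16.3% in control and 15.6% at 1 dpi to 26.9% at 7 dpi, and mt-Nd2 from 18.1% and 18.2% to 12.2%. The intervals of these 2 ratios do not overlap, so the mRNAs were not scaled down by 1 common factor.

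mt-Cytb was the mt- mRNA with the most UMIs in control and at 1 dpi, with 2394 CPM in control, 3620 at 1 dpi and 780 at 7 dpi, and its ratio of 1.51 (1.48 to 1.54) was the only rise of a mt- gene past 1.5-fold at 1 dpi. The complex I genes mt-Nd1, mt-Nd3 and mt-Nd4 were also above control at 1 dpi, with ratios of 1.25, 1.33 and 1.38. In contrast, mt-Nd5 (1473 and 1413 CPM, ratio 0.960) and mt-Nd6 (116 and 100.4, ratio 0.862) lay below control with intervals that exclude 1. mt-Nd6 is the only one of the protein-coding genes read from the other strand of mitochondrial DNA. At 7 dpi the ratios were 0.298 for mt-Nd1, 0.364 for mt-Nd3, 0.278 for mt-Nd4, 0.342 for mt-Nd5, 0.239 for mt-Nd6 and 0.326 for mt-Cytb. Transfer RNAs gave 129, 72 and 9 UMIs in all, and mt-Tp, with 51, 29 and 1 UMIs, was the only one with at least 50 UMIs over 2 libraries (ratio at 7 dpi 0.0514, 0.00128 to 0.299).

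For single genes, a ratio of CPM was taken as past the fold when it was at least 1.5 in either direction, its interval excluded 1 and the gene had at least 50 UMIs in both libraries together. Of the 90 nuclear-encoded genes, 89 had a UMI in control and 90 at 1 dpi and 7 dpi. At 1 dpi, 86 could be compared, of which 3 were higher and 2 were lower, where 19.8% and 13.2% of the 11357 genes compared in all were higher and lower. At 7 dpi, 0 of 85 were higher and 8 were lower, where 16.5% and 31.3% of 10227 genes were. The median log2 ratio of the members was 0.02 at 1 dpi and -0.08 at 7 dpi, beside 0.04 and -0.21 over all genes. Within 1.5-fold of control lay 80 of 86 members at 1 dpi and 76 of 85 at 7 dpi, although the intervals of 28 members excluded 1 upwards and those of 23 downwards at 1 dpi, and those of 22 and 33 at 7 dpi. Per 1000000 UMIs outside mt- genes, 19 members (22.4%) were lower at 7 dpi, beside 42.7% of the 10216 genes outside mt-. With at least 500 genes per barcode, 10 members were higher and 0 lower at 1 dpi and 2 higher and 3 lower at 7 dpi, and in cells of at most 20% mt- UMIs, 8 were higher and 0 lower at 1 dpi. The shares of all genes were not computed under these barcode and cell filters, so these counts have no background beside them. Among the mt- genes, 11 could be compared: mt-Cytb was higher and mt-Rnr1 lower at 1 dpi, and 11 of 11 were lower at 7 dpi.

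**Figure D3:**
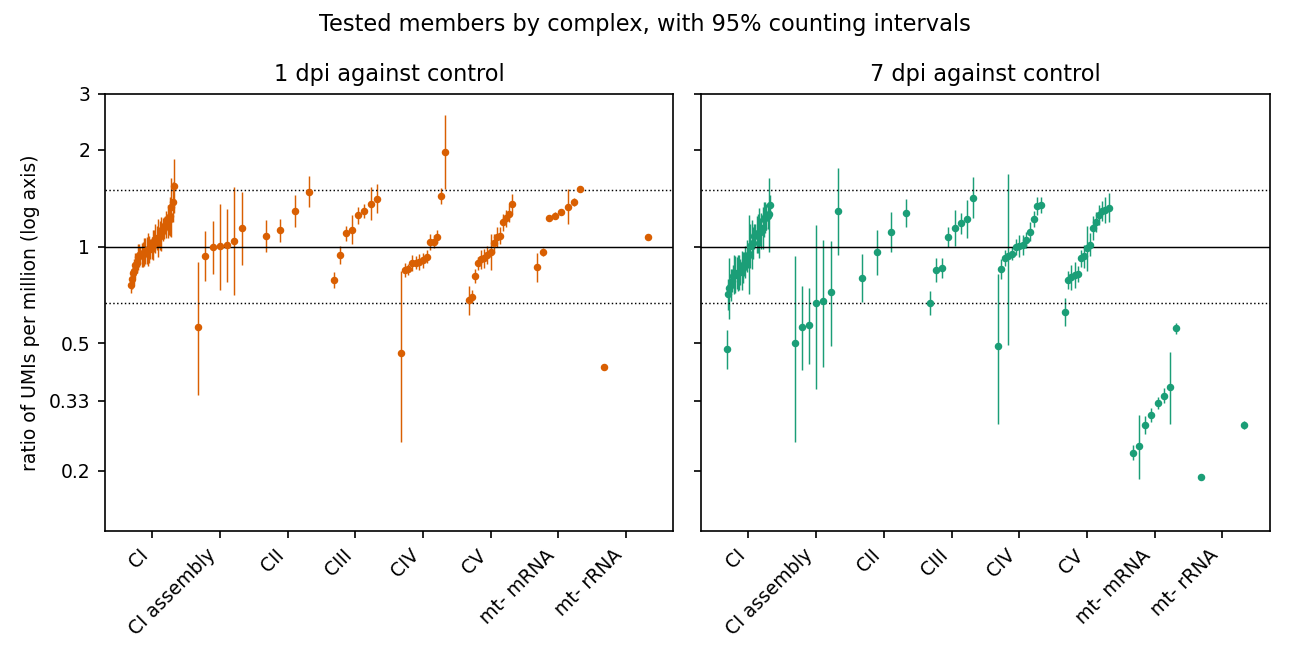
Ratio of CPM to control (log axis) for each gene with at least 50 UMIs in both libraries together, at 1 dpi (left) and 7 dpi (right), by complex, with 95% counting intervals. Dotted lines mark 1.5-fold in either direction, and at 7 dpi the mt- genes lie at 0.556 or below while most nuclear-encoded genes lie between the dotted lines. Cox7a2l, Atp5s, Atp5sl and mt-Tp are not drawn.

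By complex, with the single gene Cox7a2l left apart, the differences were small. They were widest for complex II at 1 dpi and the assembly factors at 7 dpi. Complex II, succinate dehydrogenase, had 374 CPM in control, 454 at 1 dpi and 405 at 7 dpi, a ratio of 1.22 (1.15 to 1.28) at 1 dpi. The assembly factors of complex I had 132, 129 and 90.9, a ratio of 0.687 (0.600 to 0.785) at 7 dpi. Complex I itself had 5409, 5302 and 5145, complex III 1858, 2031 and 1778, complex IV 5156, 4933 and 5480, and the ATP synthase 4301, 4166 and 4173 CPM. Their 8 ratios to control lay between 0.951 and 1.09.

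Within complex I, whose subunits form an NADH-oxidising arm in the matrix and a proton-pumping arm in the membrane, Ndufa2 had the most UMIs in control, with 388 CPM in control, 294 at 1 dpi and 315 at 7 dpi. Its ratio of 0.757 (0.714 to 0.803) was among the 5 lowest of the nuclear-encoded genes at 1 dpi. Ndufs1, the largest iron-sulfur subunit, had 196, 231 and 71 UMIs, or 24.5, 37.8 and 23.2 CPM, and was past the fold at 1 dpi with 1.55 (1.27 to 1.88). Leaving out the cells of the hepatocyte gate removed Ndufs1 from the genes past the fold. Ndufa1, a small subunit of the membrane arm, had 235, 231 and 316 CPM, a ratio of 1.34 (1.24 to 1.45) at 7 dpi.

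Ndufa5, a subunit of the matrix arm, showed the lowest ratio of the nuclear-encoded genes at 7 dpi. It had 1275, 1096 and 233 UMIs, or 159, 179 and 76.2 CPM, and the ratio was 0.479 (0.415 to 0.551). The difference was not shared by all classes: the ratio was 0.432 (0.222 to 0.775) in the monocyte gate and 0.485 (0.335 to 0.712) in the neutrophil gate, but 1.16 (0.781 to 1.66) in the Kupffer cell gate and 2.59 (0.956 to 6.07) in the T cell gate. The difference between classes was not tested.

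Of the assembly factors, Ndufaf5 had 63, 27 and 12 UMIs with ratios of 0.562 (0.344 to 0.896) and 0.499 (0.245 to 0.934), so that it was low at both times. Ndufaf4, at 32.6, 32.4 and 18.3 CPM, and Ndufaf2, at 37.9, 35.5 and 21.6, were past the fold only in the comparison of 7 dpi, with 0.562 and 0.569. Ndufaf3 had a ratio of 1.29 (0.941 to 1.75) at 7 dpi and was the only one of the 7 above 1 there. Atp5sl, which despite its name is known as an assembly factor of the membrane arm of complex I, went the other way at 1 dpi, with 11.6, 21.0 and 8.83 CPM and a ratio of 1.81 (1.37 to 2.39). Atp5s, which belongs to the same family, had 31, 38 and 13 UMIs and a ratio of 1.61 (0.974 to 2.67) at 1 dpi, which did not exclude 1.

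In complex II, Sdhb, the iron-sulfur subunit, had the most UMIs, with 146, 163 and 186 CPM. Sdha, the flavoprotein that oxidises succinate, had 72.6, 107.7 and 57.9, a ratio of 1.48 (1.32 to 1.66) at 1 dpi that stayed just inside the fold. Sdhc, a membrane anchor, had 73.0, 94.3 and 70.0, a ratio of 1.29 (1.15 to 1.45). The 4 subunits of this complex are thus not shifted by the same amount, since Sdhd had a ratio of 1.08 (0.961 to 1.21).

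In complex III, Uqcrh, the hinge protein, had the most UMIs in control, with 387, 306 and 332 CPM. Uqcrc2, a core protein, had 66.8, 90.9 and 94.8, with ratios of 1.36 (1.21 to 1.54) at 1 dpi and 1.42 (1.23 to 1.64) at 7 dpi, the highest of the compared nuclear-encoded genes at 7 dpi. Uqcr11 lay above control at 1 dpi and below it at 7 dpi, with 341, 375 and 227 CPM and a ratio of 0.666 (0.612 to 0.724) at 7 dpi. This last value lies at the edge of the fold, and Uqcr11 was no longer past it without the cells of the hepatocyte gate.

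In complex IV, Cox4i1, the ubiquitous form of subunit 4, had the most UMIs of all nuclear-encoded members, with 825 CPM in control, 700.2 at 1 dpi and 783 at 7 dpi. Cox8a and Cox5b, small subunits of the same enzyme, had 483, 518 and 652 and 355, 314 and 475 CPM, with ratios at 7 dpi of 1.35 (1.28 to 1.42) and 1.34 (1.26 to 1.43). Cox7a2l, a factor that joins complexes III and IV into supercomplexes, had 281, 273 and 156, a ratio of 0.557 (0.503 to 0.615) at 7 dpi. In the Kupffer cell gate its ratio was 0.613 (0.397 to 0.907) and in the neutrophil gate 0.651 (0.506 to 0.844), so that Cox7a2l was below control within both classes.

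In the ATP synthase, Atp5e, the epsilon subunit of the catalytic head, had the most UMIs in control, with 592, 413 and 486 CPM, a ratio of 0.698 (0.664 to 0.732) at 1 dpi. Without the cells of the hepatocyte gate it was past the fold, at 0.636. Atp5l, subunit g of the membrane part, was below control at 1 dpi and above it at 7 dpi, with 133, 90.5 and 176 CPM and ratios of 0.679 (0.611 to 0.753) and 1.32 (1.19 to 1.47). Between 7 dpi and 1 dpi directly, Atp5l was higher by 1.95 times and Cox5b by 1.51 times, and these were the 2 members higher among 84, beside 19.4% of 10271 genes. In the same comparison 10 members were lower, among them Sdha (0.537), Ndufv1 (0.540) and Ndufs1 (0.614), beside 36.3% of all genes. These counts are over all UMIs and depended on the denominator. Over UMIs outside mt- genes, 1 of the 84 members was higher and 22 were lower, beside 13.6% and 46.3% of genes outside mt-.

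At 1 dpi the members with short transcripts lay lower than those with long ones. Over the 86 compared members, the median ratio was 0.941 for 15 members under 600 bases, 0.963 for 39 members of 600 to 1200 bases and 1.13 for 32 members over 1200 bases, of which 27 were above 1. The same split over all genes outside mt- gave medians of 0.790, 0.924 and 1.04, in the same order, and 5485 of the 10059 longest genes were above 1. The rank correlation (Spearman) of ratio and length was 0.459 over the 86 members, but only 0.0412 over 11017 genes outside mt-. At 7 dpi the medians of the members were 0.931, 0.918 and 1.07. Those of all genes outside mt- fell with length there, at 0.986, 0.930 and 0.854. Lengths are those of the longest coding GENCODE vM21 transcript of each gene, and genes of 1 library are not independent of each other.

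To ask whether the library values held within cell types, cells were gated by markers: a cell with at least 10% of its UMIs in 20 hepatocyte genes was set to the hepatocyte gate, and any other cell to the class of which it expressed at least 2 markers and more than of any other class. The gate names stand for these markers. Siglech was detected in 78.0% of control cells of the plasmacytoid dendritic cell gate and 0.809% of other cells, and Clec4f in 63.4% of the Kupffer cell gate and 8.99% of others. Some markers were also widespread outside their gate, so that the gates are less pure there. S100a8 was found in 97.8% of cells of the neutrophil gate and 84.3% of other cells at 7 dpi, and Alb in 100% of the hepatocyte gate and 90.2% of other cells at 1 dpi. At 1 dpi, Clec4f was found in 82.2% of the Kupffer cell gate and 32.8% of other cells, a wider spread than in control. Ptprb was found in 73.5% of the endothelial gate and 35.4% of other cells at 1 dpi, beside 78.6% and 7.03% in control. Siglech at 1 dpi was found in 77.01% of its gate and 2.597% of other cells. The wound macrophage gate held different cells in control, with Gpnmb in 77.3% and Trem2 in 65.4% of its cells, than at 7 dpi, with Arg1 in 86.5% and Ccl2 in 73.5%, and was not compared. No marker is a member of the respiratory chain list.

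The low mt- share at 7 dpi was present in every class that could be compared. In the neutrophil gate, which held 514 control cells and 2950 cells at 7 dpi, it went from 27.0% to 4.87%. In the Kupffer cell gate (2462 and 192 cells) it went from 16.4% to 2.58%, in the monocyte gate (1119 and 384 cells) from 23.3% to 3.14% and in the T cell gate (389 and 59 cells) from 21.1% to 3.90%. The ratios of the 4 classes were 0.135 to 0.184 for all mt- genes and 0.279 to 0.389 for the mt- protein-coding genes. Over all classes with at least 50 cells, the mt- share was 13.3 to 30.5% in control and 2.58 to 4.87% at 7 dpi, and these ranges did not overlap.

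Nuclear-encoded levels at 7 dpi were above control in the same 4 classes, with ratios of 1.10 to 1.23 per 1000000 UMIs of all genes. In the Kupffer cell gate they were 18870 and 22764 CPM, and in the neutrophil gate 13192 and 14559. Per 1000000 UMIs outside mt- genes, the ratios were 0.847 to 1.04, with none above 1 by its interval and the neutrophil gate below it. The sign within classes thus depended on the denominator. Among the classes of at least 50 cells, neutrophils had the lowest nuclear-encoded level at 1 dpi and 7 dpi, at 11677 and 14559 CPM, while in control their interval (12817 to 13576) overlapped that of B cells (12756 to 14029).

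**Figure D4:**
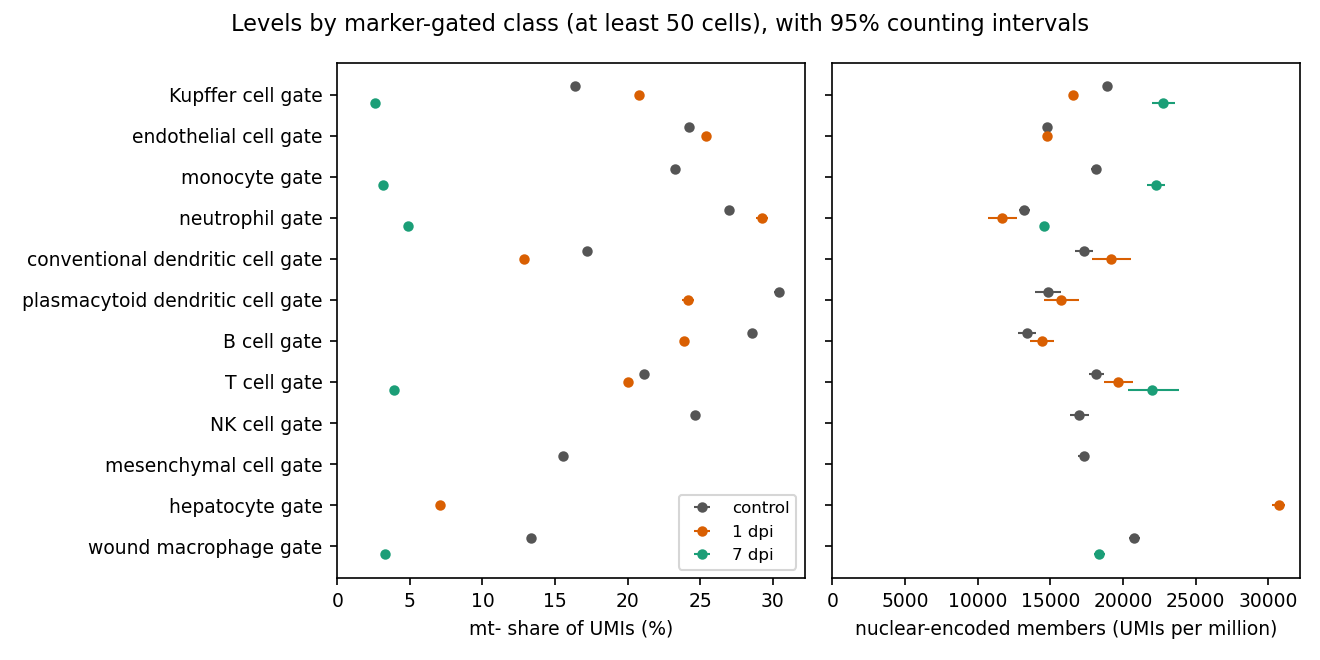
Share of UMIs from mt- genes (left, percent) and CPM of the nuclear-encoded genes (right) in each marker-gated class with at least 50 cells, by library, with 95% counting intervals. All classes at 7 dpi lie at 2.58 to 4.87% mt- UMIs, and the hepatocyte gate at 1 dpi has 7.11% mt- UMIs and the highest nuclear-encoded level, 30698.

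At 1 dpi, 7 classes could be compared and did not move in 1 direction. The mt- share was above control in 3 classes and below it in 4, from 0.749 (0.727 to 0.771) in conventional dendritic cells to 1.27 (1.26 to 1.27) in Kupffer cells. mt-Rnr1, in contrast, was below control in 7 of 7 classes, with ratios of 0.281 to 0.480. mt-Cytb was above control by its interval in 5 of the 7 classes, and mt-Nd5 below it in 4. The nuclear-encoded genes were above control in 2 classes and below it in 2, from 0.876 (0.864 to 0.889) in Kupffer cells to 1.11 in conventional dendritic cells. Per 1000000 UMIs outside mt- genes they were above control in 1 class and below it in 2, from 0.913 in neutrophils to 1.07 in T cells. In the 1484 and 3502 cells of the endothelial gate they were level, at 14751 and 14757 CPM.

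Within the Kupffer cell gate at 1 dpi, 2 of 81 members were higher, Atp5sl (2.29) and Ndufs1 (1.61), and 2 were lower, Atp5e (0.651) and Ndufa2 (0.660), beside 15.1% and 10.3% of all 7679 genes. In the endothelial gate, 3 of 78 were higher, Atp5g1 (1.69), Ndufaf3 (1.96) and Uqcrfs1 (2.19), and 0 lower, beside 12.3% and 8.52%. At 7 dpi, 11 of 77 members were higher in the Kupffer cell gate, with Ndufab1, the mitochondrial acyl carrier protein, highest at 2.70 (1.84 to 3.87), and 1 was lower, Cox7a2l, beside 11.6% and 4.29% of all genes. In the neutrophil gate, 10 of 73 were higher and 3 lower (Ndufa5, Cox7a2l and Ndufa8), beside 28.5% and 8.81%. In the monocyte gate, 13 of 70 were higher and 1 lower (Ndufa5), beside 26% and 7.99%. As shares of the members compared, the genes higher at 7 dpi were 14.3% in Kupffer cells, 13.7% in neutrophils and 18.6% in monocytes. Members and background were called here over all UMIs only. Outside mt- genes, the ratio of the nuclear-encoded group at 7 dpi was 1.04, 0.847 and 0.972 in these gates, in the same order, and single members were not called.

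The hepatocyte gate at 1 dpi, with 288 cells, had the highest nuclear-encoded level and the lowest mt- share among the classes of at least 50 cells in its library. Nuclear-encoded genes had 30698 CPM there, 1.95 times (1.92 to 1.98) the level of all other cells at 1 dpi, and mt- genes took 7.11% of UMIs. The cholangiocyte gate, with 47 cells, was lower still at 5.52%. Its nuclear-encoded level was also high, at 26862 CPM (25868 to 27885), where the classes of at least 50 cells outside hepatocytes reached at most 19668. In the hepatocyte gate, the mt- protein-coding genes were at 22557 CPM, above every other class of that library. The low mt- share of this gate was thus a low share of mt-Rnr2 (4.68% of UMIs). Of 83 members, 67 were higher than in the other cells by the fold, beside 14.8% of 9369 genes, and the median log2 ratio was 0.94 for members and -0.76 for all genes. Uqcrq, a small subunit of complex III, had 1308 CPM in the gate and 338 in other cells, a ratio of 3.87 (3.57 to 4.21). Ndufv1, the subunit that binds NADH, had a ratio of 3.31 and Atp5g1 of 3.26. The control library had 20 cells in this gate and the 7 dpi library 0, so that no change with time could be read for hepatocytes.

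Several subunits exist as a common form and a form known from a particular tissue, and the latter were near the limit of detection with 1 exception. Cox4i2, the low-oxygen and lung form of subunit 4, had 4, 3 and 2 UMIs. Ndufa4l2, known for its rise in low oxygen, had 13, 3 and 5 UMIs beside 2234, 2447 and 856 of Ndufa4. Cox7a1, the muscle form, had 21, 26 and 21 UMIs, which is 0.751%, 1.18% and 1.75% of its pair with Cox7a2. Cox6b2, the testis form, had 45, 16 and 16 UMIs, a ratio of 0.467 (0.246 to 0.841) at 1 dpi. Cox8b was not analysed here.

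Cox6a2, known as the heart and muscle form of subunit 6a, was the exception, because it was concentrated in 1 class. In the plasmacytoid dendritic cell gate it had 48 UMIs in 127 control cells, or 673 CPM (496 to 892), and 32 UMIs in 87 cells at 1 dpi, or 732 (501 to 1034). In the T cell gate it had 6.78 and 12.9 CPM and in the Kupffer cell gate 0.887 and 14.9. Over the libraries together, the plasmacytoid dendritic cell gate had 735 CPM, and the next class, NK cells, had 16.8 from 3 UMIs. At 1 dpi alone the next class was neutrophils, with 3 UMIs in 3 of 84 cells, or 65.2 CPM (13.5 to 190.6). In the plasmacytoid dendritic cell gate, Cox6a2 made up 64.0% (52.1 to 74.8%) of the UMIs of its pair with Cox6a1 in control and 71.1% (55.7 to 83.6%) at 1 dpi, whereas over all cells it was 2.30%, 4.28% and 1.09%. A Cox6a2 UMI was found in 26.0% (18.6 to 34.5%) of the plasmacytoid dendritic cells in control and 26.4% at 1 dpi, beside 0.257% and 0.741% of T cells, at median depths of 501 and 462 against 590 and 475 UMIs. After each cell was thinned to 300 UMIs the shares were 16.0% and 12.0%, beside 0.258% and 0.769%.

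The library value of Cox6a2, 12.0 CPM in control, 23.6 at 1 dpi and 5.88 at 7 dpi, gave the highest ratio of a nuclear-encoded gene at 1 dpi, 1.97 (1.51 to 2.58), and a low one at 7 dpi, 0.491 (0.279 to 0.818). The plasmacytoid dendritic cell markers had the same order, at 0.0405%, 0.0523% and 0.0182% of UMIs. The cells of that gate did not, with 127 in control, 87 at 1 dpi and 7 at 7 dpi. The gate gave 48 of the 96 Cox6a2 UMIs in control and 32 of the 144 at 1 dpi. Outside it, Cox6a2 had 4.19 CPM in control and 19.2 at 1 dpi in the endothelial gate. In the Kupffer cell gate it had 2 and 30 UMIs. Of 3 classes compared for Cox6a2 at 1 dpi, 2 were above control by their intervals and 0 below. Within the plasmacytoid dendritic cell gate the intervals of the 2 libraries overlap. The part of each class in the library values was not tested.

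Subunit c, the rotor ring of the ATP synthase, is made from 3 genes that encode the same mature protein with different import signals, and the balance among them differed between the libraries. Atp5g1 had 172 CPM in control, 234 at 1 dpi and 224 at 7 dpi, Atp5g2 had 71.3, 68.4 and 70.3, and Atp5g3 had 257, 236 and 161. Atp5g1 thus gave 34.4% (33.0 to 35.9%) of the subunit c UMIs in control, 43.4% (41.7 to 45.2%) at 1 dpi and 49.2% (46.6 to 51.9%) at 7 dpi. The order was the same within the Kupffer cell gate, at 33.1%, 38.7% and 48.4%. Control was also lower than 1 dpi in the endothelial gate, at 32.4% and 42.3%, and lower than 7 dpi in the neutrophil gate, at 36.6% and 51.6%. In the T cell gate the shares were 26.6%, 35.5% and 31.6% with overlapping intervals. In the plasmacytoid dendritic cell gate they went the other way, from 34.5% (17.9 to 54.3%) in control to 23.5% (6.81 to 49.9%) at 1 dpi, from only 10 and 4 Atp5g1 UMIs. The hepatocyte gate at 1 dpi had 52.7%, and the part of hepatocyte RNA in the values of that library was not tested.

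**Figure D5:**
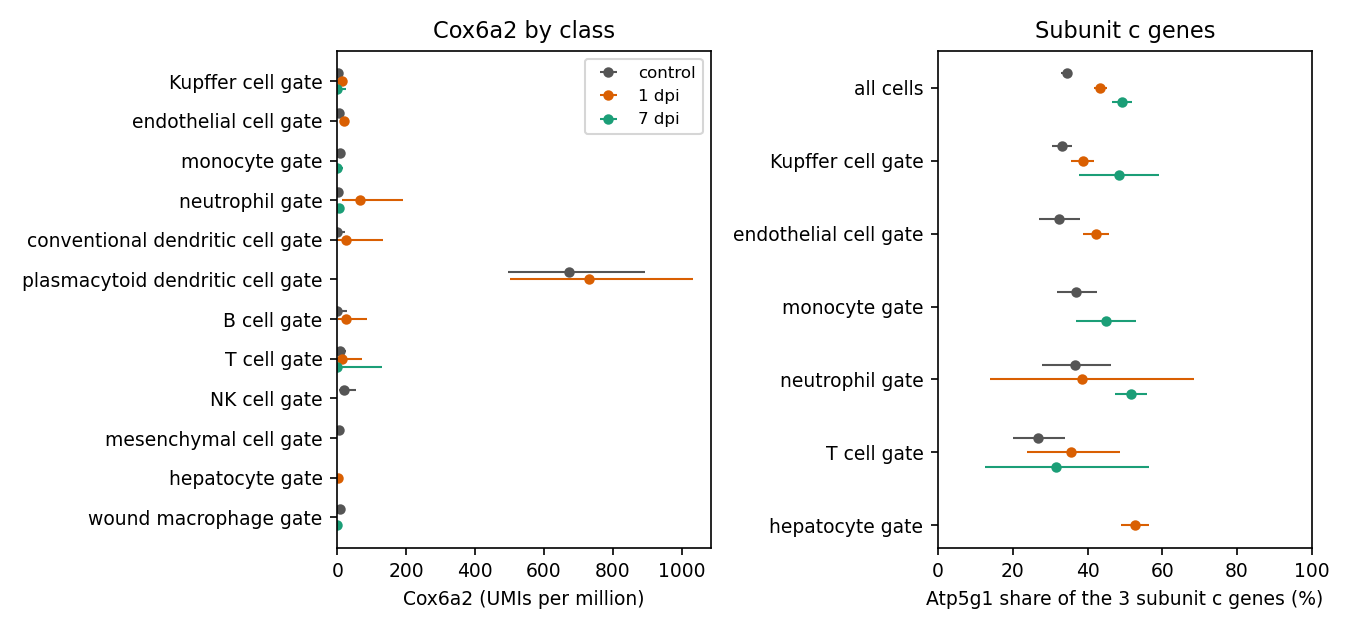
CPM of Cox6a2 by class (left), and share of Atp5g1 in the UMIs of the 3 subunit c genes (right, percent), by library, with 95% counting intervals. Cox6a2 lies at 673 and 732 in the plasmacytoid dendritic cell gate and near 0 in most others, and Atp5g1 goes from 34.4% in control to 49.2% at 7 dpi over all cells.

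Many nuclear-encoded respiratory chain genes share promoter elements, of which the palindromic site of the activator NRF1 and the site of ETS factors such as GABPA are the best known. In the RefSeq promoters (250 bases before to 50 after the start, build GRCm38.p6), 74 of the 90 genes had an entry. On either strand, the NRF1 letters GCGCATGCG were in 10 of 74 (13.5%) and in 2.41% of all 17491 promoters, the ETS letters CCGGAAG in 16 (21.6%) and 11.9%, the YY1 letters AAGATGGC in 10 (13.5%) and 3.22%, and ACGTG, the core of the low-oxygen response element, in 19 (25.7%) and 20.7%. The promoters of Cox6a1 (chr5:115348909-115349208, minus strand) and Cox8a (chr19:7217567-7217866, minus strand) are printed because they hold these elements in different arrangements, with NRF1 and ETS matches in capitals.
Cox6a1: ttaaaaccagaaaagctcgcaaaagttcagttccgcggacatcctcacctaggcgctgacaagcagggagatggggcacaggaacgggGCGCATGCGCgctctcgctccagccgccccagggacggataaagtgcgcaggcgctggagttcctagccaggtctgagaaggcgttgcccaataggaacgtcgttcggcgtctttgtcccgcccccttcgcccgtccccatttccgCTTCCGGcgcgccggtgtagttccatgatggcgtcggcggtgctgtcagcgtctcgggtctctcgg
Cox8a: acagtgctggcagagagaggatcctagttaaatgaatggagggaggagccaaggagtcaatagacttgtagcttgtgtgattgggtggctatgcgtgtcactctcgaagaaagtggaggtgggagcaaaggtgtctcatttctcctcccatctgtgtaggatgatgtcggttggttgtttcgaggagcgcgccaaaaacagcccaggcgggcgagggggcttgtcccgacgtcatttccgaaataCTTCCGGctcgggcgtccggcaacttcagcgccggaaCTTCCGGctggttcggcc
In Cox6a1 the first run of capitals is the NRF1 match on both strands, which overlap, and every run in Cox8a is an ETS match. Members with the NRF1 letters had a median ratio of 0.964 at 1 dpi and 0.907 at 7 dpi, beside 1.01 and 0.967 for members without them. Members with the ETS letters had medians of 0.991 and 1.03, beside 0.995 and 0.933.

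The genes that feed, assemble and regulate the chain were counted from lists of general knowledge, with the same rule as the members. Beside these counts, 19.8% of all genes were higher and 13.2% lower at 1 dpi, and 16.5% and 31.3% at 7 dpi. The lists were counted over all UMIs only. Outside mt- genes, the median log2 ratio of all genes at 7 dpi was -0.48 and not -0.21, so that list ratios near the fold at 7 dpi depend on the denominator. At 1 dpi, 5 of 11 electron carriers and feeders were higher and 0 lower, with a median log2 ratio of 0.55, and Etfb, a subunit of the flavoprotein that brings electrons from fatty acid oxidation, had 215, 315 and 104 CPM in control, at 1 dpi and at 7 dpi. Of the 13 citric acid cycle genes, 3 were higher at 1 dpi and 0 lower (median 0.24), and 0 were higher and 2 lower at 7 dpi (median -0.03). At 7 dpi, 4 of 10 electron carriers were higher and 1 was lower, and Cycs, cytochrome c, had 159, 117 and 239 CPM.

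The glycolysis genes past the fold lay below control at 1 dpi and above it at 7 dpi. At 1 dpi 8 of 17 genes were lower and 0 higher, beside 13.2% and 19.8% of all genes, and at 7 dpi 17 of 17 were higher, beside 16.5% of all genes, with a median log2 ratio of 2.36. Gapdh had 339, 378 and 2077 CPM and Pkm 344, 164 and 1790. A list of 9 low-oxygen genes held mitochondrial ones and the general low-oxygen genes Hif1a, Egln1, Egln3 and Vegfa. Of these 9, 3 were higher and 1 lower at 1 dpi, and 7 were higher and 0 lower at 7 dpi, beside the same shares of all genes. Bnip3, a receptor for the removal of mitochondria, had 15.0, 40.3 and 283 CPM.

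A list of 7 genes held carriers for ADP, ATP and phosphate, the uncoupling protein Ucp2 and the outer membrane channels Vdac1 to Vdac3, of which 0 were higher and 1 lower at 1 dpi, and 1 was higher and 1 lower at 7 dpi. The higher one was Ucp2, with 98.5, 114 and 178 CPM, a ratio of 1.80 (1.61 to 2.01) over all UMIs that was not taken outside mt- genes. The lower one at both times was the heart and muscle form of the ADP/ATP carrier, Slc25a4, with 226, 144 and 93.5 CPM, whereas Slc25a5, its broadly expressed form, had 386, 385 and 575, a ratio of 1.49 at 7 dpi that stayed inside the fold. Of 15 assembly genes of complex IV, 1 was higher and 0 lower at 1 dpi, and 2 were higher and 1 lower at 7 dpi, where the copper chaperone Cox17 had 216, 154 and 472 CPM. Of 16 regulators of mitochondrial biogenesis, 3 were higher (18.8%) and 0 lower at 1 dpi, and of 14 compared at 7 dpi, 3 were higher (21.4%) and 4 lower (28.6%), near the shares of all genes apart from the lower ones at 1 dpi. Tfam, which packs mitochondrial DNA and starts its transcription, was among the latter, with 38.2, 39.9 and 18.6 CPM.

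The mitochondrial ribosome, which is built on mt-Rnr1 and mt-Rnr2 but has nuclear-encoded proteins, had 2 of 75 genes higher and 3 lower at 1 dpi, and 2 higher and 10 lower at 7 dpi, with medians of -0.05 and -0.02, beside 19.8% of all genes higher and 13.2% lower at 1 dpi and 16.5% and 31.3% at 7 dpi. Import subunits had 0 of 22 higher and 1 lower, then 3 higher and 1 lower. The cytosolic ribosome had 1 of 95 higher and 27 lower at 1 dpi (median -0.47) and 6 of 93 higher and 18 lower at 7 dpi (median -0.32).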

How the data were processed

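The authors aligned the reads of 3 Drop-seq libraries with STAR (version 2.5.2a and build hg19 per the submitters' processing notes), counted UMIs per gene and barcode from sense-strand reads of mapping quality 10 or more, and deposited these counts without normalization. UMIs within an edit distance of 1 were merged per the file headers. The headers also state a minimum of 200 genes per barcode, yet barcodes with as few as 11 genes were present, so this filter was applied again. Doublets were not removed and no caller was run. Groups were taken from the labels.

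Counts were summed per library or gate in Python 3.11.15 with NumPy 2.4.6 and SciPy 1.17.1. Shares have exact binomial (Clopper-Pearson) intervals, levels exact Poisson intervals and ratios conditional binomial intervals, at 95%. A single library per group allowed no test. Nuclear copies were sought among annotated transcripts with blastn 2.17.0+. Of 150 markers, 147 were in the files.

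The members, gene lists and gates were chosen with earlier results of these data known. Genes named are the mt- protein-coding genes, the 5 largest rises and falls per time point among genes of at least 50 UMIs, fixed isoform pairs, members at least 3-fold above the next class with at least 20 UMIs, and the most abundant member of each complex. Other members were named after their values were seen. The calling step was tested on simulated counts. Alternatives changed the barcode filter, denominator, fold limit, UMI minimum, gates and cells.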

Additional observations from a re-analysis of the deposited data

Results flagged for a closer look

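At 1 dpi, the mt- share went in opposite directions in different gates: its ratio to control was 1.27 in Kupffer cells and 0.749 in conventional dendritic cells, and that of mt-Rnr2 alone was 1.29 and 0.751. The mt- protein-coding genes were at 1.53 times control in the neutrophil gate, which had 84 cells at 1 dpi, and at 0.897 times control in the B cell gate. The differences between gates were not tested.

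Barcodes under 200 genes, which no comparison of cells used, also held respiratory chain RNA, and which library was above control depended on the denominator. The mt- genes took 52.7%, 38.7% and 8.41% of their UMIs in control, at 1 dpi and at 7 dpi. The mt- protein-coding genes had 14621, 17345 and 3175 CPM, so that they were above control at 1 dpi and below it at 7 dpi, and per 1000000 UMIs outside mt- genes the value at 1 dpi was also below control, at 28306 against 30890. The nuclear-encoded genes had 8038, 11110 and 9251 CPM, above control at both times, whereas outside mt- genes they had 16982, 18131 and 10101, above control at 1 dpi and below it at 7 dpi.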

How the results depend on the processing

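Of 99 alternative values of 15 results, 41 lay within the interval of the main value (for counts, within 1.5 times), 58 lay outside it, and 0 of those past the fold changed direction. Direction was judged only for ratios whose main value was past the fold. Some ratios inside the fold did change side. In neutrophils at 7 dpi, the nuclear-encoded ratio was 1.10, and 0.847 outside mt- genes. The ratio to control of the mt- share at 1 dpi, 1.06, became 0.988 with every deposited barcode, 1.02 with at least 500 genes per barcode, 0.967 in cells of at most 20% mt- UMIs, 1.14 without the hepatocyte gate and 1.24 as the median over cells. At 7 dpi the same settings, in this order and without the hepatocyte gate setting, gave 0.205, 0.218, 0.327 and 0.178. For the nuclear-encoded genes at 1 dpi, at least 500 genes gave 1.08, at most 20% mt- UMIs 1.10, no hepatocyte gate 0.903, UMIs outside mt- genes 1.00 and the mean over cells 0.927. At 7 dpi, every barcode gave 0.934, at least 500 genes 1.01, at most 20% mt- UMIs 0.856 and UMIs outside mt- genes 0.816. Leaving out shared barcodes, an alternative chosen after seeing the data, gave 1.09 and 0.199 for the mt- share and 0.964 for the nuclear-encoded genes at 1 dpi.

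Members higher at 1 dpi numbered 10 with at least 500 genes, 8 with at most 20% mt- UMIs and 0 at a fold of 2, and those lower 0, 0 and 1 (Cox6b2). At 7 dpi, 1 member was higher with every barcode or at least 10 UMIs (Cox7a1, 2.57 and 2.62) and 2 with at least 500 genes (Atp5g1 and Uqcrfs1), and 3 were lower with at least 500 genes, 3 at a fold of 2 and 19 outside mt- genes. Of these settings, the share of all genes was computed only outside mt- genes, where 42.7% were lower at 7 dpi.

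In Kupffer cells the mt- ratio at 1 dpi was 1.25 with 3 markers and a lead of 2, 1.21 with the hepatocyte gate at 20%, 1.12 with at most 20% mt- UMIs and 1.20 with at least 500 genes, and at 7 dpi 0.173 with 3 markers, 0.232 and 0.185. The nuclear-encoded ratio there at 1 dpi was 0.919 with the gate at 20%, 0.925 outside mt- genes, 0.965 with at most 20% mt- UMIs and 0.914 with at least 500 genes, and at 7 dpi 1.14 with 3 markers, 1.04, 1.10 and 1.09. In neutrophils at 7 dpi the mt- ratio was 0.190 with 3 markers, 0.344 and 0.238, and the nuclear-encoded ratio 0.847 outside mt- genes, 0.845 with at most 20% mt- UMIs and 0.979 with at least 500 genes. The hepatocyte gate at 1 dpi stood at 2.05, 1.61, 1.55 and 1.69 times other cells with the gate at 20%, outside mt- genes, at most 20% mt- UMIs and at least 500 genes. The causes were not tested. A denominator outside mt- genes cannot be applied to the mt- share.

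No paired analysis was possible because each group is a single library. Pooling of animals, free RNA, a depth of about 500 UMIs per cell and the cell makeup of each library limit every comparison, and counting intervals cover none of these.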
